A study of Chlamydomonas reinhardtii with 12 samples.

Results

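In the green alga Chlamydomonas reinhardtii, 41 of 17301 gene models were nearly silent in the wild type CC-124 and expressed in other strains of the same series. The members were chosen by their RPKM values: each was below 0.5 RPKM in all 3 CC-124 columns, and its 17 values in the other strains averaged 3 RPKM or more. RPKM is a read count divided by the length of the model and the depth of the library. The contrast of CC-124 with the other strains chose the members, so it is described here and not tested.

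RNA sequencing covered 4 strains at 3 stages with 1 sample for each strain and stage, 12 samples in all. The strains were crr1dCys (the crr1 mutant rescued with a form of CRR1 named crr1dCys), crr1 (a mutant of CRR1), crr1:CRR1 (the mutant rescued with CRR1) and the wild type CC-124. The stages were light-oxic culture, 0.5 h of dark-anoxic incubation and 6 h of dark-anoxic incubation in sealed, stirred bottles. The incubated cells and the light-oxic cells were aliquots of main cultures, and light and oxygen were withdrawn together. The sources used here give no parent strain, number of clones or transgene promoter for the mutant and its rescued strains. 8 samples had repeat columns, named by series TS1, TS2 or TS4, and the columns rested on 12001000 to 18894000 reads. CC-124 occurs in TS2 alone, and TS4 holds crr1:CRR1 alone. The table gives no gene names and the RefSeq table no symbols, so CRR1 itself could not be checked in the mutant.

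CRR1 is the copper response regulator of this alga, a transcription factor that switches on genes under copper deficiency and also acts in cells short of oxygen. crr1dCys is known as a form of the protein that lacks its cysteine-rich end. Laboratory strains of Chlamydomonas are known to differ in sequence along stretches of their chromosomes, so that a gene can be present or intact in one strain and not in another. From transcript levels alone, a missing gene, a sequence too different to be matched by reads and a gene that was not transcribed cannot be told apart. In the same way, fewer expressing cells and less RNA per cell cannot be told apart in bulk cultures.

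The members fell into 4 groups of unequal weight, drawn after their values were seen. 30 members were expressed in each of crr1dCys, crr1 and crr1:CRR1, though not all of them in every column. 3 members were expressed in crr1dCys alone, with less than 1 RPKM in every column of crr1, crr1:CRR1 and CC-124. 1 member, Cre17.g716550.t1.2, owed its place to a single column labelled crr1:CRR1. The remaining 7 were counted at fewer than 30 reads over all 20 columns, a count that is not settled for Cre10.g443550.t1.1. These groups were the frame for every count that follows.

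**Figure D1:**
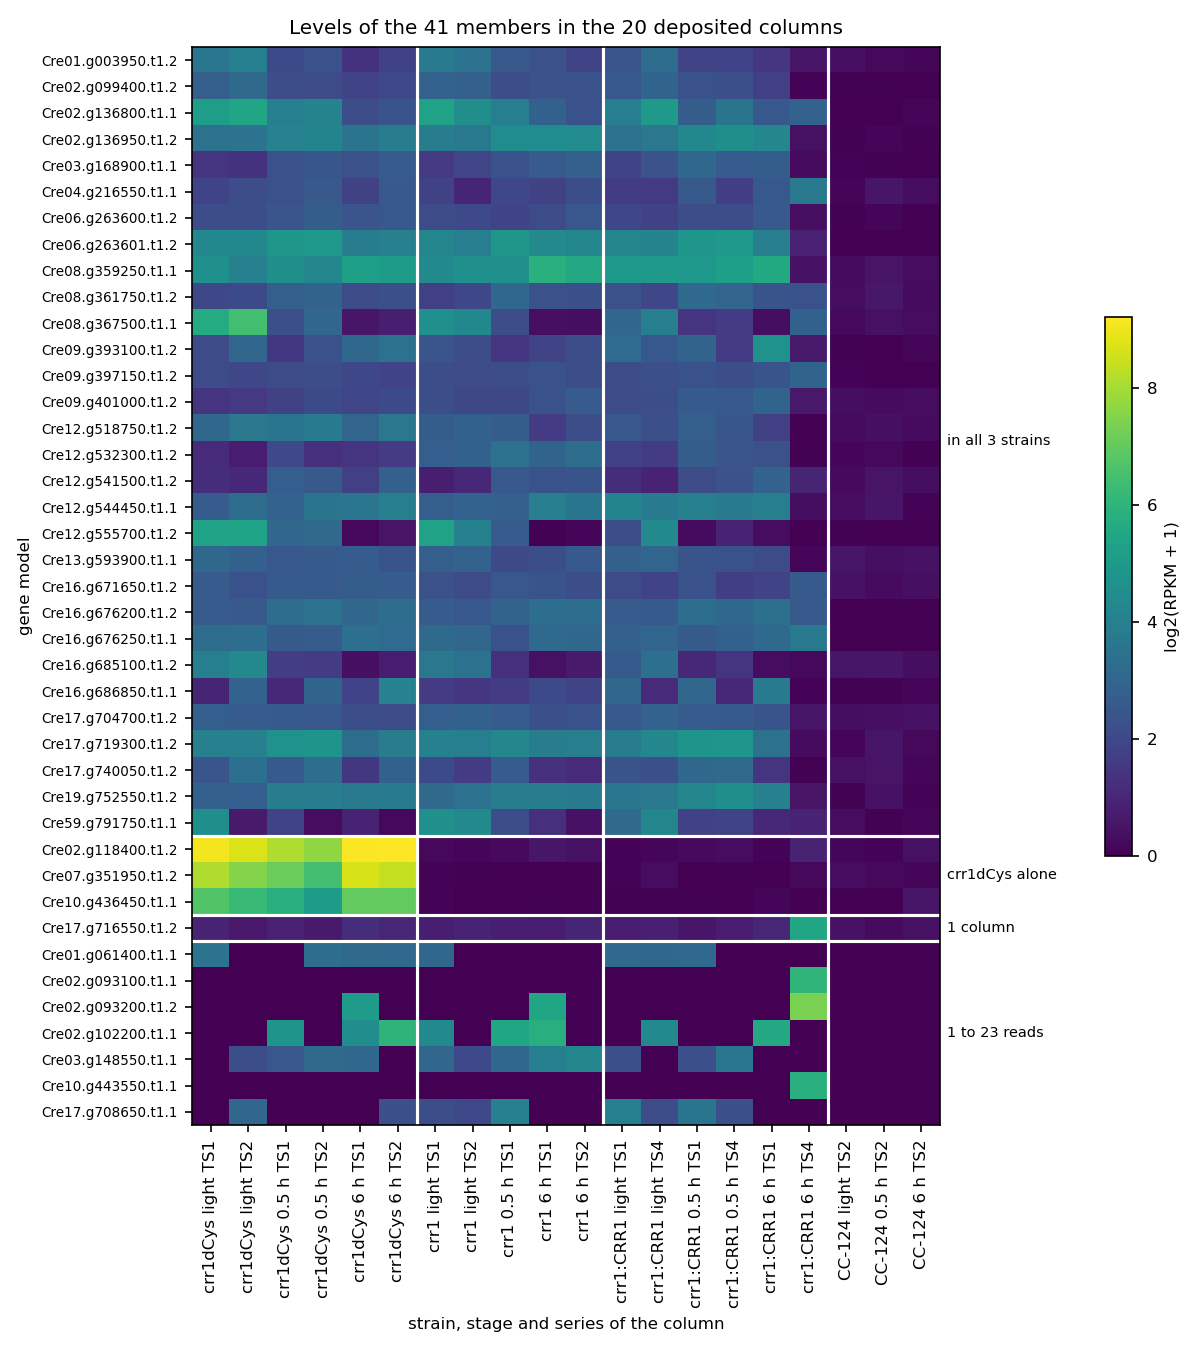
Level of each of the 41 members (rows) in the 20 deposited columns, as log2(RPKM + 1), with strains in blocks from crr1dCys to CC-124 and white lines between the 4 groups of members. The 3 CC-124 columns at the right are dark throughout, 3 members are bright in the crr1dCys block alone, and the last crr1:CRR1 column, TS4 at 6 h, is dark for most of the 30 members in the upper block.

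One column has to be set apart before the results. For crr1:CRR1 at 6 h, the TS4 column differed from the TS1 column of the same sample by an SD of 1.105 log2 units over all models, whereas repeat columns of the other 7 samples differed by 0.261 to 0.368. 14 of the 34 members with 30 reads or more differed by at least 2 log2 units between TS4 and TS1 there, against 0 or 1 in each other pair of repeat columns. Without that column, 38 members would remain. Its values for the members go against its label in part, and whether this library is what its label says was not tested. It is called TS4 at 6 h below, and values of crr1:CRR1 at 6 h that include it carry that doubt. Results that rest on it are given with and without it.

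The 30 members expressed in all 3 strains carried substantial read counts. Their mean level over the 16 columns other than TS4 at 6 h lay between 3.20 and 30.9 RPKM, with a median of 5.48 RPKM. 26 of the 30 reached 0.5 RPKM in each of those 16 columns, so their expression did not come from a single stage or series. Each had between 1344 and 29238 reads over the 17 columns (median 3594), against 0 to 74 reads over the 3 CC-124 columns (median 16). Within TS2, the series that holds CC-124, the 30 members averaged 3.21 to 27.5 RPKM over the 5 columns of crr1dCys and crr1, with a median of 6.10 RPKM. These 5 columns are among the 17 whose mean chose the members, so their high mean is partly fixed by the rule. Not every one was high: Cre59.g791750.t1.1 had 0.602, 0.230 and 0.139 RPKM in TS2 of crr1dCys, in the order of the stages. In TS2 of crr1 it had 19.1 RPKM in light-oxic culture and 0.370 at 6 h. A difference between series was not tested.

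Summed over the 30 members, the columns of crr1dCys, crr1 and crr1:CRR1 held 8263 to 15855 reads, apart from TS4 of crr1:CRR1 at 6 h with 2479. CC-124 held 194 reads in light-oxic culture, 325 at 0.5 h and 179 at 6 h. None of the 30 reached 0.5 RPKM in CC-124, which the rule fixes. Most members still had a trace of reads there. Only 3 members outside the 7 with few reads had no read in any CC-124 column, namely Cre06.g263601.t1.2, Cre16.g676200.t1.2 and Cre16.g676250.t1.1. A count of 0 over the 3 columns together, taken as at most 3 reads, allows up to 0.104 RPKM for Cre06.g263601.t1.2, 0.0240 for Cre16.g676200.t1.2 and 0.0256 for Cre16.g676250.t1.1. These limits cover counting error alone.

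The highest of the 30 was Cre08.g359250.t1.1. It had 23.8 and 15.2 RPKM in light-oxic crr1dCys, 22.9 and 17.9 at 0.5 h, and 36.4 and 33.5 at 6 h. In crr1 it had 20.1 and 23.97 RPKM in light-oxic culture, 23.6 at 0.5 h, and 57.0 and 47.1 at 6 h. In crr1:CRR1 the TS4 and TS1 columns had 30.3 and 29.6 RPKM in light-oxic culture, 36.1 and 29.6 at 0.5 h, and 0.354 and 47.7 at 6 h. CC-124 had 0.204, 0.412 and 0.249 RPKM in the order of the stages. All columns but the TS4 column at 6 h lay far above CC-124, and that column lay within the range of CC-124.

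Cre06.g263601.t1.2 came next, with a mean of 19.4 RPKM over the 17 columns. It ranged from 13.9 to 29.2 RPKM in crr1dCys, from 14.6 to 28.5 RPKM in crr1 and, without TS4 at 6 h, from 14.4 to 30.8 RPKM in crr1:CRR1, and it had no read in CC-124. The 3 expressing strains overlapped throughout. Cre17.g719300.t1.2 averaged 16.4 RPKM and Cre02.g136800.t1.1 averaged 16.2 RPKM, with CC-124 at most at 0.426 and 0.104 RPKM. The member with the longest model, Cre02.g136950.t1.2, rested on 28593 reads in the other strains and 22 reads in CC-124. It ranged from 9.77 to 22.9 RPKM in the columns of the 3 strains other than TS4 at 6 h.

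Some models lay very near the limits of the rule. Just inside the CC-124 limit were Cre13.g593900.t1.1, whose highest CC-124 column had 0.481 RPKM, and Cre08.g361750.t1.2 with 0.497 RPKM. Just outside were Cre03.g151450.t1.1 with 0.510 RPKM and Cre06.g292250.t1.1 with 0.525 RPKM. On the mean, Cre12.g541500.t1.2 with 3.13 RPKM and Cre17.g716550.t1.2 with 3.28 RPKM were just inside, and Cre06.g289300.t1.2 with 2.98 RPKM and Cre13.g583287.t1.1 with 2.80 RPKM just outside. The edge of the set thus ran through closely spaced values.

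The 7 members with few reads were counted at 1 to 23 reads in all, the lowest whole numbers that fit their values. Their models have an implied length of 1 to 17 bases, read from the steps of the values, against 546 to 7691 bases (median 2844) for the other 34. At such lengths, 1 read is worth many RPKM. The single read of Cre02.g093100.t1.1, on 1 base, gave 65.3 RPKM in TS4 of crr1:CRR1 at 6 h. Cre10.g443550.t1.1 had 56.9 RPKM in that column and 0 in all others. A model with a value in 1 column alone is always counted at 1 read. Its 56.9 RPKM does not correspond to 1 read on a whole number of bases in that column. The read number and length of Cre10.g443550.t1.1 are therefore unknown. The highest mean in this group was 17.5 RPKM for Cre02.g102200.t1.1, from 13 reads in 8 columns. Cre02.g093200.t1.2 had a mean of 14.0 RPKM from 7 reads, 5 of them in TS4 at 6 h.

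All 7 had 0 reads in CC-124, but 3 reads over the CC-124 columns together would have meant 3.98 to 67.6 RPKM. For 6 of the 7, with the unknown length of Cre10.g443550.t1.1 taken as 1 base, that limit lay above the mean over the 17 columns. Apart from Cre10.g443550.t1.1, a difference from CC-124 was thus not detectable for them at this depth. The exception was Cre03.g148550.t1.1, with a limit of 3.98 RPKM and a mean of 5.47 RPKM from 23 reads. The 3 not yet named were Cre01.g061400.t1.1 with 8 reads, Cre03.g148550.t1.1 with 23 and Cre17.g708650.t1.1 with 18. They are counted as members because the rule admits them, and calls of few-read members below are named as such and not interpreted.

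**Figure D2:**
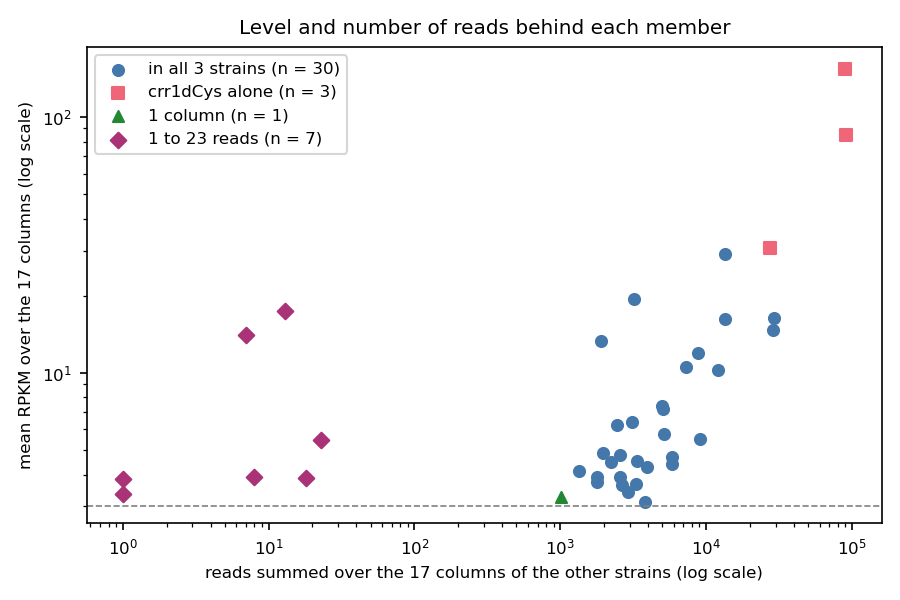
Mean RPKM over the 17 columns of the other strains (log scale) against reads summed over the same columns (log scale), 1 point per member and 1 symbol per group. The dashed line is the 3 RPKM minimum of the rule. The 7 members at the left are counted at 1 to 23 reads, a count not settled for Cre10.g443550.t1.1. The 30 members of all 3 strains rest on 1344 reads or more.

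The 3 highest members of the whole set were those expressed in crr1dCys alone. Cre02.g118400.t1.2 had 531 and 423 RPKM in light-oxic crr1dCys (TS1 and TS2), 278 and 206 RPKM at 0.5 h, and 581 and 599 RPKM at 6 h. In crr1 its columns had 0.113 to 0.461 RPKM, in crr1:CRR1 0.0540 to 0.861 RPKM, and in CC-124 0.0539 to 0.334 RPKM. The 6 crr1dCys columns lay far above all others, which overlapped among themselves.

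Cre07.g351950.t1.2 had 278 and 180 RPKM in light-oxic crr1dCys, 139 and 88.3 at 0.5 h, and 410 and 340 at 6 h, and at most 0.242 RPKM in any column of crr1, crr1:CRR1 or CC-124. Cre10.g436450.t1.1 had 105 and 72.8 RPKM in light-oxic crr1dCys, 55.8 and 33.6 at 0.5 h, and 126 and 130 at 6 h, and at most 0.469 RPKM elsewhere. In crr1dCys all 3 had their lowest level at 0.5 h and their highest at 6 h, in both series. For these 3 members CC-124 was not set apart from crr1 or crr1:CRR1: the strain that stood apart was crr1dCys.

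In crr1dCys, crr1 and crr1:CRR1, Cre02.g118400.t1.2 averaged 436 ± 177, 0.239 ± 0.134 and 0.251 ± 0.190 RPKM (mean ± SD over 3 stages). Cre07.g351950.t1.2 averaged 239 ± 131 RPKM in crr1dCys, 0.0188 ± 0.0246 in crr1 and 0.0865 ± 0.0591 in crr1:CRR1. Cre10.g436450.t1.1 averaged 87.2 ± 41.7 RPKM in crr1dCys, 0.0248 ± 0.0219 in crr1 and 0.0361 ± 0.0199 in crr1:CRR1. The crr1dCys stages did not overlap with those of either other strain for any of the 3.

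Strain differences among crr1dCys, crr1 and crr1:CRR1 were tested with limma on log2(RPKM + 1), with stages as the replicates of a strain. 14191 models were tested, and a model was called at an adjusted p below 0.05 and a difference of at least 1 log2 unit. The percentages in brackets give the share of all tested models called in the same direction. The rule used these strains only as one pooled mean. A member expressed in 1 strain alone could enter only through that strain, however, so the 3 calls for crr1dCys-only members are given as a description of their size.

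For crr1dCys against crr1:CRR1, 3 members were called higher (all models, 0.31%) and 0 lower (all models, 0.0916%); 9 and 1 members had an unadjusted limma p below 0.05. The 3 were the crr1dCys-only members, whose calls follow from how they entered the set. Their sizes were 8.38 log2 units for Cre02.g118400.t1.2 (SE 0.23), 7.61 for Cre07.g351950.t1.2 (SE 0.30) and 6.27 for Cre10.g436450.t1.1 (SE 0.27). Without TS4 at 6 h, Cre12.g518750.t1.2 at 1.204 log2 units (limma adjusted p = 0.00365) and Cre08.g367500.t1.1 at 1.34 (limma adjusted p = 0.0419) were called as well. The other members were thus not separated from crr1:CRR1 with all columns.

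For crr1dCys against crr1, the same 3 members were called higher (all models, 0.409%), by 8.37, 7.70 and 6.28 log2 units, again by how they entered. 1 member was called lower (all models, 0.261%). The lower one was Cre12.g532300.t1.2. It had 0.931, 2.25 and 1.84 RPKM in crr1dCys in the order of the stages, 6.01, 10.1 and 7.82 in crr1 and 2.31, 4.96 and 1.99 in crr1:CRR1. Its log2 difference between crr1dCys and crr1 was -1.78 (SE 0.23, limma adjusted p = 0.0172), and the stages of these strains did not overlap. With TS1 columns alone the difference was -1.55 log2 units (limma adjusted p = 9.57e-05). Without TS4 at 6 h, Cre59.g791750.t1.1 was also called lower, by -1.09 log2 units (limma adjusted p = 0.0222), although its TS1 and TS2 columns in light-oxic crr1dCys had 22.98 and 0.602 RPKM.

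For crr1 against crr1:CRR1, 0 members were called higher (all models, 0.0352%) and 0 lower (all models, 0.0282%). At an unadjusted limma p below 0.05, 5 members were higher and 1 lower. The log2 differences of the 34 members with 30 reads or more ran from -0.73 to 1.31, with a median of 0.20 against -0.08 over all models tested. Without TS4 at 6 h they ran from -1.35 to 1.07 with a median of -0.04, against -0.07 over all models, and again 0 were called. With that column 23 of 34 were higher, and without it 13 of 33, so the higher median rested on it. Members expressed in all 3 strains were thus not distinguished between the mutant and its CRR1 rescue by this test, which does not show that they were equal.

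Stage responses entered the rule through the pooled mean, and were tested over crr1dCys, crr1 and crr1:CRR1, with the 3 strains as the replicates of a stage. A member high at 1 stage could pass by it. Cre16.g685100.t1.2 and Cre59.g791750.t1.1 averaged 11.8 and 15.4 RPKM in light-oxic culture, and below 3 RPKM at both dark stages. Cre12.g555700.t1.2 and Cre08.g367500.t1.1 averaged 26.2 and 33.2 RPKM in light-oxic culture, and 0.158 and 1.37 at 6 h. Cre12.g541500.t1.2, which rose, averaged 1.05 RPKM in light-oxic culture. At 0.5 h against light-oxic, 6 members fell (all models, 5.95%) and 1 rose (all models, 3.55%). At 6 h against light-oxic, 7 members fell (all models, 7.85%) and 2 were called higher (all models, 4.57%). 1 of the 2 was Cre02.g093200.t1.2, whose 7 reads all fell in 6 h columns, so it could pass the filter only through that stage. The median response of the 34 members with 30 reads or more was 0.07 log2 units at 0.5 h and 0.03 at 6 h, against -0.00 and -0.06 over all models tested. Most members therefore did not change past the threshold, and those that did mostly fell. Where 1 stage carried the mean, as for the members named above, the change is partly built into the choice. Their p-values are given with the size of the change and are no independent support. With TS1 columns alone, 7 members were called at 0.5 h and 11 at 6 h. Without TS4 at 6 h, 6 members fell and 4 were called higher at 6 h, 2 of the 4 with few reads, and the median was 0.17 log2 units, against -0.08 over all models.

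Cre08.g367500.t1.1 fell the most at 0.5 h and, without TS4, at 6 h. With all columns, Cre12.g555700.t1.2 fell the most at 6 h. Its levels were 39.5, 7.63 and 0.268 RPKM in crr1dCys, 27.0, 5.31 and 0.0729 in crr1 and 11.9, 0.554 and 0.132 in crr1:CRR1, in the order light-oxic, 0.5 h and 6 h. It was lower at each step in every strain, and the ranges of the 3 stages over strains did not overlap. The log2 fold change was -2.32 at 0.5 h (SE 0.40, limma adjusted p = 0.00304) and -4.24 at 6 h (SE 0.40, limma adjusted p = 0.000259). By 6 h its level in the 3 strains was within the RPKM range by which CC-124 counted as silent. In light-oxic crr1:CRR1 its TS4 and TS1 columns lay far apart, at 20.2 and 3.64 RPKM.

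Cre16.g685100.t1.2 followed the same course, at 17.02, 2.12 and 0.489 RPKM in crr1dCys, 11.2, 1.35 and 0.459 in crr1 and 7.22, 1.34 and 0.2004 in crr1:CRR1. It fell by 2.22 log2 units at 0.5 h (SE 0.18, limma adjusted p = 0.000116) and by 3.13 at 6 h (SE 0.18, limma adjusted p = 3.85e-05). CC-124 had 0.443, 0.467 and 0.258 RPKM, so the strains differed in light-oxic culture and came within a narrow span at 6 h.

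Cre08.g367500.t1.1 had the largest SD over strains in light-oxic culture among the 30 members, 30.1 RPKM, at 67.4 RPKM in crr1dCys, 21.4 in crr1 and 10.8 in crr1:CRR1. At 0.5 h it had 5.46, 3.52 and 1.85 RPKM in the same order, a change of -2.56 log2 units (SE 0.53, limma adjusted p = 0.00680). At 6 h it had 0.590 RPKM in crr1dCys and 0.290 in crr1, while in crr1:CRR1 the TS4 column had 6.22 RPKM and the TS1 column 0.255. Its 6 h change was -3.80 log2 units with all columns (SE 0.53, limma adjusted p = 0.00108) and -4.22 without TS4. It is the only one of the 30 members that was at least 2 log2 units higher in TS4 than in TS1.

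Cre59.g791750.t1.1, on a scaffold outside the chromosomes, averaged 15.4 ± 5.27 RPKM in light-oxic culture, 2.52 ± 1.03 at 0.5 h and 0.773 ± 0.237 at 6 h (mean ± SD over 3 strains). It fell by 1.91 log2 units at 0.5 h (SE 0.24, limma adjusted p = 0.000813) and by 2.83 at 6 h (SE 0.24, limma adjusted p = 0.000186). In crr1dCys its TS1 columns had 22.98, 2.67 and 0.860 RPKM in the order of the stages, against 0.602, 0.230 and 0.139 in TS2. The SD over strains does not show this spread. Cre02.g136800.t1.1 averaged 30.7 ± 8.47, 12.8 ± 3.88 and 4.89 ± 0.910 RPKM over the same stages. It fell by 1.18 log2 units at 0.5 h (limma adjusted p = 0.00763), by 2.37 at 6 h (limma adjusted p = 0.000367) and by 1.19 between 0.5 h and 6 h (limma adjusted p = 0.00852), in 3 of 3 strains each time. Unlike the members above, it kept several RPKM at 6 h.

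Cre01.g003950.t1.2 averaged 10.5 ± 3.43 RPKM in light-oxic culture, 3.75 ± 1.16 at 0.5 h and 2.14 ± 1.07 at 6 h, with log2 changes of -1.23 (limma adjusted p = 0.000790) and -1.89 (limma adjusted p = 0.000158). Cre02.g099400.t1.2 averaged 6.40 ± 0.574, 3.63 ± 0.202 and 2.73 ± 1.43 RPKM. Its 6 h change of -1.13 log2 units (limma adjusted p = 0.0109) was -0.85 without TS4 and then not called, so that call rested on 1 column.

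Cre12.g541500.t1.2 was the one member with 30 reads or more that was called higher at both dark stages. Others rose by less than the size threshold. It had 1.17, 5.32 and 4.21 RPKM in crr1dCys, 0.890, 4.65 and 4.11 in crr1 and 1.09, 3.77 and 3.73 in crr1:CRR1, against 0.183, 0.412 and 0.280 RPKM in CC-124. In each of the 3 strains both dark stages lay above the light-oxic stage. Its log2 change was 1.44 at 0.5 h (SE 0.14, limma adjusted p = 0.000251) and 1.16 at 6 h (SE 0.14, limma adjusted p = 0.000629), and 1.49 at 6 h without TS4. It was also the member closest to the minimum mean of the rule.

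**Figure D3:**
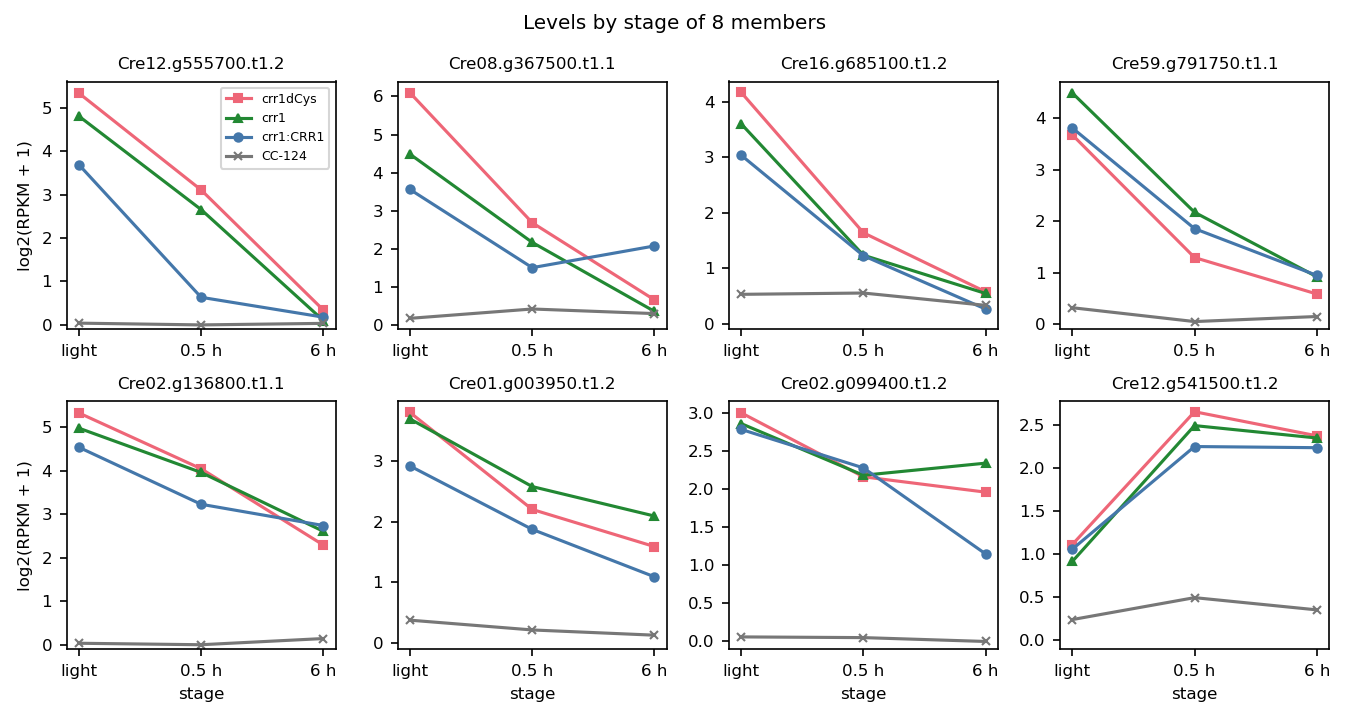
Levels of 8 members called in a comparison with light-oxic culture, as log2(RPKM + 1) of the mean over repeat columns, by stage (light-oxic, 0.5 h and 6 h of dark-anoxic incubation), with 1 line per strain and 1 sample per point. 7 members fall in crr1dCys, crr1 and crr1:CRR1, Cre12.g541500.t1.2 rises, and the CC-124 line stays near 0 in each panel, as the rule requires.

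Between 6 h and 0.5 h, 5 members fell (all models, 5.29%) and 1 was called higher (all models, 3.5%), again the few-read Cre02.g093200.t1.2. Besides Cre12.g555700.t1.2, at -1.92 log2 units (limma adjusted p = 0.00844), and Cre02.g136800.t1.1, these were Cre17.g740050.t1.2, Cre17.g719300.t1.2 and Cre06.g263601.t1.2. Cre17.g740050.t1.2 had 4.03 RPKM at 6 h and 7.03 at 0.5 h in crr1dCys, 1.33 and 5.31 in crr1 and 0.867 and 7.96 in crr1:CRR1. Its change was -1.55 log2 units (SE 0.27, limma adjusted p = 0.00405), and -1.32 without TS4 (limma adjusted p = 0.000259). It was lower at 6 h in 3 of 3 strains.

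The other pair depended on TS4. Cre17.g719300.t1.2 changed by -1.47 log2 units with all columns (limma adjusted p = 0.0308) and by -0.94 without TS4, and Cre06.g263601.t1.2 by -1.35 (limma adjusted p = 0.0204) and -0.83. Both were below the size threshold without that column, with limma adjusted p of 0.00167 and 0.000498. With TS1 columns alone, 8 members were called between 6 h and 0.5 h. Without TS4, 4 members were lower, Cre08.g367500.t1.1 at -1.65 log2 units (limma adjusted p = 0.00198) among them, and 3 were higher. Besides the few-read Cre02.g093200.t1.2, the higher ones were Cre09.g393100.t1.2 at 1.45 log2 units (limma adjusted p = 0.00420) and Cre16.g686850.t1.1 at 1.03 (limma adjusted p = 0.00405).

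The last 2, named after their values were seen, varied within samples as well. Cre16.g686850.t1.1 had 16.2 RPKM in TS2 and 2.60 in TS1 of crr1dCys at 6 h, and 1.08 in TS4 and 7.35 in TS1 of crr1:CRR1 at 0.5 h. Cre09.g393100.t1.2 had 0.599 RPKM in TS4 and 25.5 in TS1 of crr1:CRR1 at 6 h. Repeat columns of one stage thus spanned as much as the stages did. For Cre16.g686850.t1.1, crr1dCys had 0.944, 1.01 and 2.60 RPKM in TS1 and 6.55, 6.92 and 16.2 in TS2, in the order of the stages. In crr1:CRR1, TS1 had 7.36, 7.35 and 12.9 RPKM and TS4 had 1.15, 1.08 and 0.0673. In each of these strains the repeat columns differed in the same direction at every stage. Within each series but TS4, 6 h was the highest stage. Of the 27 members with 30 reads or more that were not called at 0.5 h, 18 had a higher mean than in light-oxic culture and 9 a lower one, with log2 changes from -0.71 to 0.998. At 6 h the 26 members not called ran from -0.99 to 0.93, 18 higher and 8 lower.

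In crr1:CRR1 at 6 h, the TS4 column held many members at levels as low as in CC-124. Of the 30 members expressed in all 3 strains, 12 were lower in TS4 than in TS1 by at least 2 log2 units, which is 40%, and 1 was higher. Over 13789 models at 1 RPKM or more, 5.29% were lower and 1.36% higher by that much. The grouping required a mean of at least 3 RPKM without TS4 at 6 h and set apart the member carried by that column. The excess of lower members is therefore partly built in. Among the 34 members with 30 reads or more, 12 were lower and 2 higher. The median difference was -1.79 log2 units over the 30 members and 0.22 over all models. In light-oxic culture the same 2 series gave 0 lower and 1 higher member with a median of 0.09, and at 0.5 h 1 lower and 0 higher with a median of -0.04. The members' low values in TS4 were thus seen at 6 h and not at the earlier stages of that series.

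Among the 27 of these members with at least 1 RPKM in TS1 at 6 h, 15 were below 0.5 RPKM in TS4, 5 lay between 0.5 and 1 RPKM and 7 had at least 1 RPKM. Cre02.g136950.t1.2 had 0.340 RPKM from 40 reads in TS4 and 18.1 RPKM from 1999 reads in TS1. Cre12.g544450.t1.1 had 0.268 and 14.6 RPKM, Cre19.g752550.t1.2 had 0.387 and 15.1 RPKM, and Cre17.g719300.t1.2 had 0.206 and 10.0 RPKM in TS4 and TS1. Cre06.g263601.t1.2 had 0.800 RPKM from 8 reads in TS4 and 14.4 RPKM from 135 reads in TS1. Each of these TS4 values was below 1 RPKM, while the TS1 column of the same sample held 10.0 RPKM or more.

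Other members were not low in TS4, among them 5 that differed from TS1 by less than 2 log2 units, in either direction. Cre16.g676200.t1.2 had 4.94 RPKM in TS4 and 9.58 in TS1, and Cre16.g676250.t1.1 had 12.2 and 7.85 RPKM. Cre09.g397150.t1.2 had 6.91 and 4.26 RPKM, Cre02.g136800.t1.1 had 6.51 and 4.86 RPKM, and Cre04.g216550.t1.1 had 12.4 and 4.82 RPKM. The column was therefore below 1 RPKM for part of the set and at several RPKM, as in TS1 of crr1:CRR1, for another part. The members named in these comparisons of TS4 with TS1 were picked after their values were seen.

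Cre17.g716550.t1.2 was the converse case. It had 43.3 RPKM from 794 reads in TS4 at 6 h and 0.990 RPKM from 17 reads in TS1. It averaged 0.777 RPKM over the other 16 columns, and its highest CC-124 column had 0.376 RPKM. It entered the set through that column alone.

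Models expressed in CC-124 and silent elsewhere were looked at in the same column. 11 models were below 0.5 RPKM in the 17 columns with a CC-124 mean of at least 3 RPKM, and 19 were when the TS4 column at 6 h was left out of the condition. 6 of the 19 had a value in 1 column alone, which is always counted at 1 read, so their read numbers are not settled. They are treated as few-read here. Of the other 13, 8 had at least 0.5 RPKM in TS4 of crr1:CRR1 at 6 h, while the remaining 5 had 0 to 0.412 RPKM. The highest were 8.83 RPKM for Cre17.g699000.t1.1 and 8.66 RPKM for Cre17.g698950.t1.1. No read number could be derived for Cre17.g699000.t1.1, so its place among the 13 is not backed by a count. These 8 count as absent from the other 16 columns by construction. What set this column apart, a wrong label included, was not tested.

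**Figure D4:**
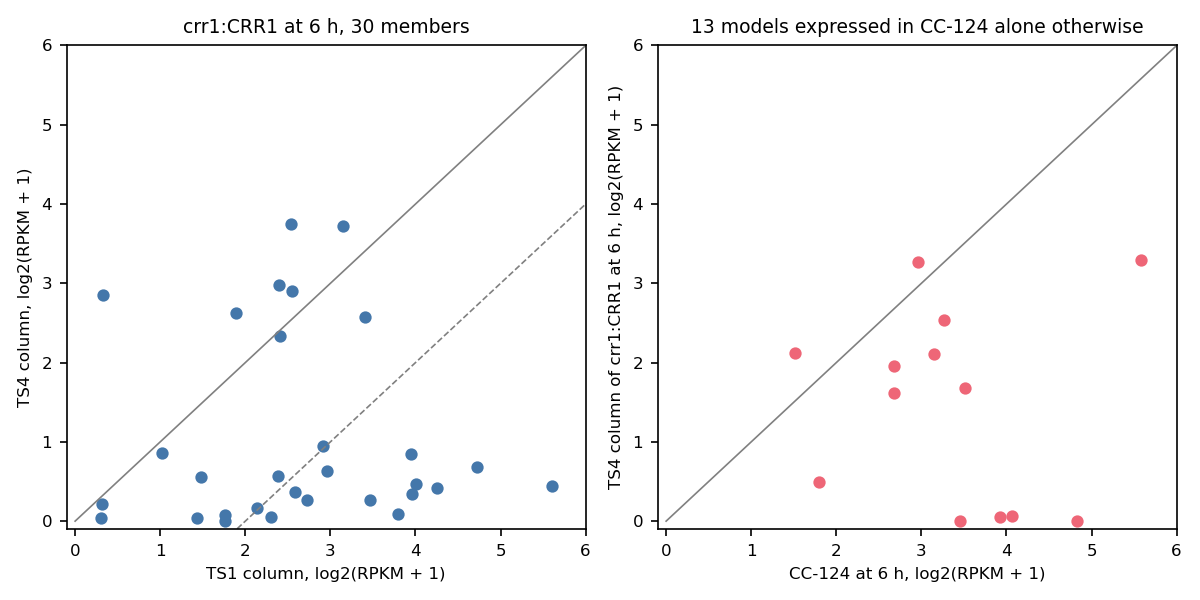
Left, the 30 members expressed in all 3 strains, with TS4 of crr1:CRR1 at 6 h on the vertical and the TS1 column of the same sample on the horizontal axis, both as log2(RPKM + 1); the solid line marks equal levels and the dashed line a level 2 log2 units lower in TS4. Right, the 13 models not counted as few-read that were silent in the other 16 columns of the 3 strains, with the same TS4 column against CC-124 at 6 h. No read number was derived for Cre17.g699000.t1.1 among them. 12 members lie below the dashed line at the left, and 8 of the 13 models at the right have at least 0.5 RPKM in TS4.

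The members were spread over many chromosomes. 39 lay on 13 of the 17 chromosomes and 2 on scaffolds, with at most 7 on one chromosome, chromosome 2. Consecutive loci were rare: 4 members formed 2 runs of 2, and there was no run of 3. Allowing 1 other locus between members gave 6 members in runs, the added pair being the few-read Cre02.g093100.t1.1 and Cre02.g093200.t1.2. Of the 11 models expressed in CC-124 alone, 6 had a value in 1 column alone and were counted at 1 read, and 0 were in runs. Of the 19 found when TS4 at 6 h was left out of the condition, 4 formed 2 runs of 2, Cre06.g277896.t1.1 with Cre06.g277900.t1.1 and Cre17.g698950.t1.1 with Cre17.g699000.t1.1. The set is thus mostly made of single loci.

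One run was Cre16.g676200.t1.2 and Cre16.g676250.t1.1 on chromosome 16. Cre16.g676200.t1.2 had 5.09, 9.56 and 8.18 RPKM in crr1dCys, 5.09, 6.73 and 9.11 in crr1 and 5.15, 8.26 and 7.26 in crr1:CRR1, and no read in CC-124. Cre16.g676250.t1.1 had 8.86, 5.24 and 8.79 RPKM in crr1dCys, 7.64, 4.03 and 7.81 in crr1 and 6.67, 5.64 and 10.0 in crr1:CRR1, and no read in CC-124. At 0.5 h against light-oxic, the first was 0.57 log2 units higher (limma adjusted p = 0.0197) and the second 0.55 lower (limma adjusted p = 0.0205), both under the size threshold. Both were thus on in the 3 strains while moving apart at 0.5 h.

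The next locus, Cre16.g676300.t1.2, extended the silent stretch. It had 2.07, 2.09 and 2.20 RPKM on average in crr1dCys, crr1 and crr1:CRR1 without TS4 at 6 h, against 0.00488 RPKM in CC-124, and missed the set by its mean alone. On the other side Cre16.g676150.t1.1 averaged 22.8 to 34.2 RPKM in the 3 strains and 6.88 RPKM in CC-124. Beyond, Cre16.g676350.t1.2 had 4.86 to 7.26 RPKM in the 3 strains and 10.8 RPKM in CC-124. Low CC-124 levels were therefore limited to 3 consecutive loci, with a reduced level on one flank.

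The other run was Cre06.g263600.t1.2 and Cre06.g263601.t1.2 on chromosome 6. Cre06.g263600.t1.2 averaged 4.43 RPKM in crr1dCys, 3.43 in crr1, 3.54 in crr1:CRR1 and 0.0453 in CC-124, and Cre06.g263601.t1.2 averaged 20.8, 19.6, 21.3 and 0 RPKM in the same order. Around them several loci were reduced in CC-124 but not silent. Cre06.g263550.t1.1 had 13.3, 11.6 and 12.4 RPKM in crr1dCys, crr1 and crr1:CRR1 against 3.31 in CC-124. Cre06.g263602.t1.1 had 7.72, 8.20 and 7.78 against 2.01, and Cre06.g263700.t1.2 had 17.2, 12.2 and 13.5 against 2.47 RPKM. Cre06.g263750.t1.1, further along, had 17.3 to 19.5 RPKM in the 3 strains and 15.99 in CC-124.

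On chromosome 2, Cre02.g136800.t1.1 and Cre02.g136950.t1.2 stood close to each other with 2 loci between them. Of those, Cre02.g136900.t1.2 averaged 20.04, 23.8 and 19.7 RPKM in crr1dCys, crr1 and crr1:CRR1 against 1.68 in CC-124, whereas Cre02.g136850.t1.1 had 5.94, 3.89 and 5.06 against 3.40 RPKM. Silent, reduced and little changed loci alternated along this stretch. The loci outside the 2 members, Cre02.g136750.t1.2 and Cre02.g137000.t1.2, had 4.199 to 5.13 and 7.24 to 8.92 RPKM in the 3 strains, against 4.56 and 7.34 RPKM in CC-124.

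**Figure D5:**
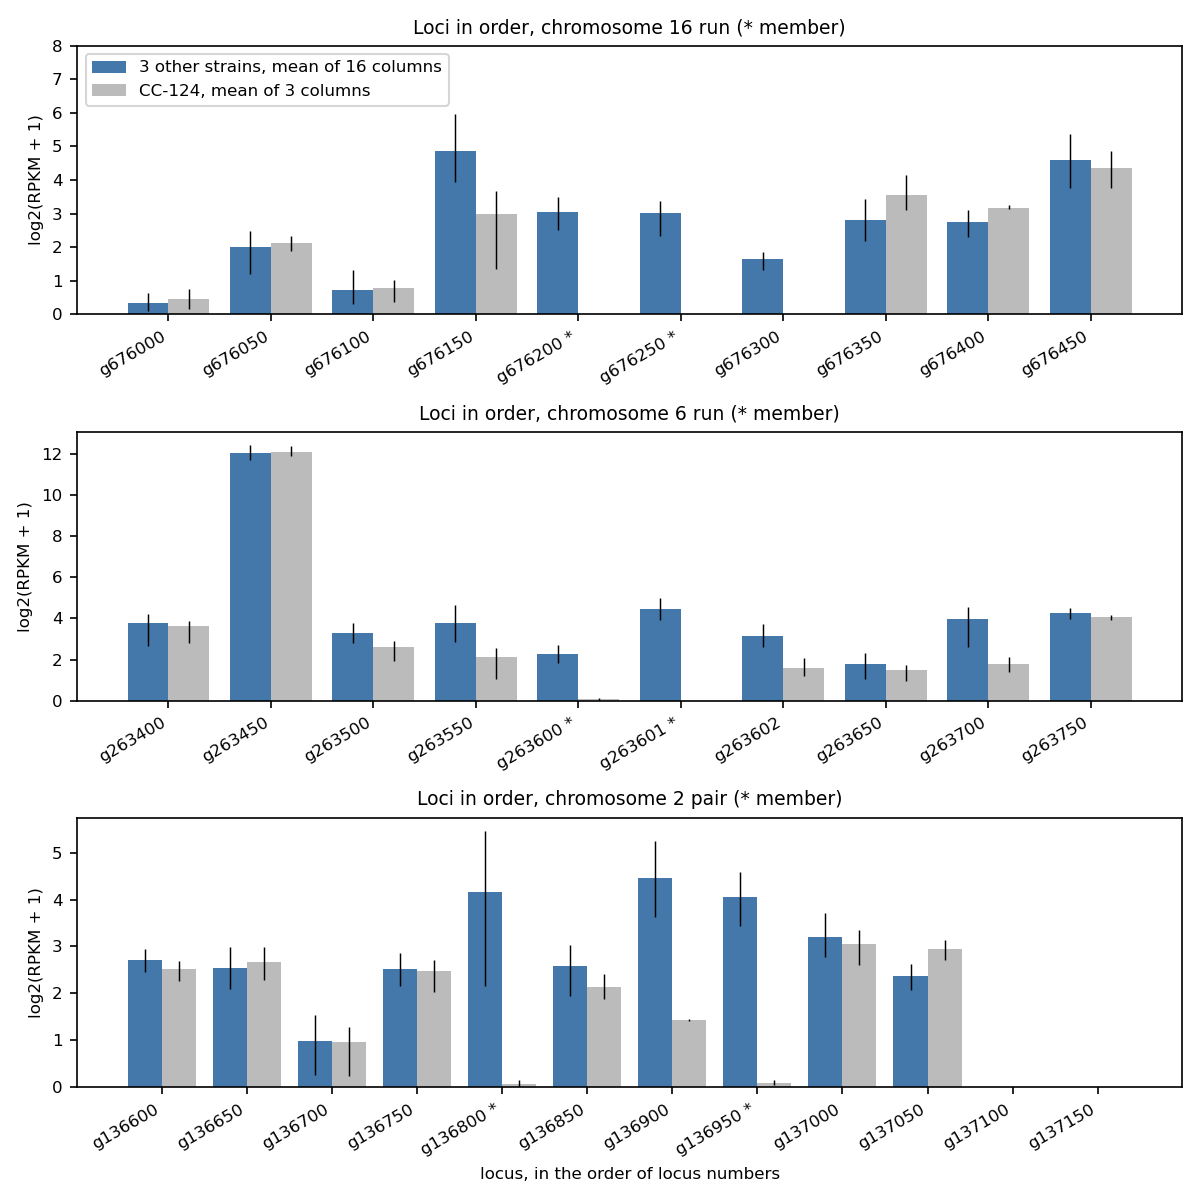
Levels of loci in the order of their numbers around the runs on chromosomes 16 and 6 and the pair on chromosome 2, as log2(RPKM + 1) of the mean RPKM. Bars left are the mean of the 16 columns of the 3 other strains (TS4 at 6 h left out), bars right the mean of the 3 CC-124 columns, lines span the lowest and highest column, and asterisks mark members; the CC-124 bars vanish at the members and at g676300 and are reduced at some neighbours.

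Taken over all 34 members with 30 reads or more, loci next to a member were often lower in CC-124 as well. Of 60 immediate neighbours with at least 1 RPKM that are no members, 12 were lower in CC-124 by at least 1 log2 unit, which is 20%, and 1 was higher, which is 1.67%. Among all 14297 models at that level, 3.97% were lower and 3.45% higher. The 12 neighbours belonged to 12 members. This is a description without a test, and 2 of the 12 neighbours are beside members expressed in crr1dCys alone. How reads were assigned to models is not given in the sources used here, and reads shared between overlapping neighbours cannot be told apart from separate transcripts.

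The neighbour with the largest difference, Cre07.g352000.t1.1, lay beside Cre07.g351950.t1.2 and shared its strain pattern. It averaged 1443 RPKM in crr1dCys, 6.21 in crr1, 4.99 in crr1:CRR1 and 4.54 in CC-124. Next to Cre10.g436450.t1.1, Cre10.g436500.t1.1 averaged 35.5 RPKM in crr1dCys, 6.73 in crr1, 8.27 in crr1:CRR1 and 12.1 in CC-124. Beside Cre02.g118400.t1.2, the neighbours Cre02.g118350.t1.2 and Cre02.g118450.t1.2 had 3.31 and 3.64 RPKM in crr1dCys against 5.28 and 5.21 in CC-124. High levels in crr1dCys therefore extended to a neighbour for 2 of the 3 members.

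Other neighbours reduced in CC-124 include Cre03.g168950.t1.1, beside Cre03.g168900.t1.1, with a mean of 16.6 RPKM over the 17 columns against 4.06 in CC-124. Cre59.g791800.t1.2, beside Cre59.g791750.t1.1, had 6.68 against 1.45 RPKM, and Cre16.g685050.t1.1, beside Cre16.g685100.t1.2, had 63.5 against 19.6 RPKM. The exception was Cre08.g359300.t1.1, beside Cre08.g359250.t1.1, with 1.07 RPKM over the 17 columns against 7.67 in CC-124. A silent locus and a locus higher in CC-124 thus stood side by side there.

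A RefSeq locus tag was found for 29 of the 41 members, which is 70.7%, against 73.2% of all models. Among the 34 members with 30 reads or more 26 matched, and among the 7 with few reads 3. None of the matched entries carries a gene symbol, so no function is given for any member.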

How the data were processed

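Total RNA of 12 Chlamydomonas cultures was sequenced with Illumina, per the labels' protocols. The authors deposited 1 table of normalised values for 17301 gene models in 20 columns, read here as RPKM from the values, since no header names the unit. Bowtie is the one tool listed per the submitters' processing notes. Its version, the annotation, the build and how reads were assigned to models are not given in the sources consulted, and neither is the use of strand. Depths of 12001000 to 18894000 reads per column were inferred from the steps of low values: of 779 models with low values, 99.7% then took a length within 0.05 base of a whole number, whereas 10 trial depths nearby gave 10.3% on average. For all 41 members a step was found at which the values were whole reads within 0.02 read, or a slightly wider margin for large counts. This is how the step was chosen, so it is no separate check. A member with a value in 1 column alone cannot fail it. These depths are upper bounds, because a common divisor would give the same steps. Reads per model are lower bounds instead, because the largest step that fits was used and a divisor shared by all counts of a model would be missed.

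Columns were matched to samples by name; the abbreviations of crr1:CRR1 and crr1 were told apart by elimination. Repeat columns were averaged on the log2 scale for tests and arithmetically for printed levels, and counted as 1 replicate. No column was without a sample.

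The members and the lists were chosen with earlier results of these data known. Values were analysed as log2(RPKM + 1), which understates changes of low models, with limma 3.58.1 in R 4.3.3 (additive fit of strain and stage, mean-variance trend, 4 residual degrees of freedom) on the 9 samples of crr1dCys, crr1 and crr1:CRR1. Models entered when those samples averaged 1 RPKM or more, and p-values were adjusted by Benjamini-Hochberg over all of them. CC-124 was left out because the rule fixes it near 0. Without TS4 at 6 h, 3 members fell under that filter: Cre17.g716550.t1.2, Cre02.g093100.t1.1 and Cre10.g443550.t1.1. The p-values measure the spread between strains or stages, not between cultures, and members are not replicates. The fit was tested on simulated data.

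The text names the 8 members with the highest mean, the 4 called members with the largest change per comparison and direction, the members of runs, and those nearest the limits; other names were chosen after their values were seen and are said to be so or belong to the 4 groups, to TS4 or to neighbours. Loci were ordered by the numbers in their identifiers. RefSeq (assembly v5.5) served for name matching alone, with no coordinates. Lists by gene symbol (mating type, nitrate assimilation, mobile elements, cell wall, copper response) and protein similarity between members were planned and not used here, because the table in hand pairs no symbols or sequences with the loci. Python 3.11.15 with pandas 2.3.3 and matplotlib 3.10.9 did the rest.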

Additional observations from a re-analysis of the deposited data

Results flagged for a closer look

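6 members changed in opposite directions among the strains at 6 h against light-oxic, reaching at least 0.5 log2 units in each direction, when both columns of crr1:CRR1 were averaged. The difference between strains was not tested, since each strain has 1 sample per stage. The responses of Cre02.g136950.t1.2 were 0.21 in crr1dCys, 0.66 in crr1 and -1.20 in crr1:CRR1 (log2 units). Cre03.g168900.t1.1 had 1.11, 1.01 and -0.63 in the same order. Cre08.g359250.t1.1 had 0.84, 1.201 and -1.93. Cre12.g532300.t1.2 had 0.57, 0.33 and -0.54. Cre12.g544450.t1.1 had 0.79, 0.91 and -1.81, and Cre19.g752550.t1.2 had 0.93, 0.51 and -1.43. In all 6 the strain that fell was crr1:CRR1. Without the TS4 column at 6 h, its responses were 0.71, 0.60, 0.65, 0.59, -0.00 and 0.34 in the order of the members above, so the opposite direction rested on that column.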

How the results depend on the processing

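No called change of a named member reversed its sign under the alternatives run for it. Values that were not called did: without TS4 at 6 h, the crr1:CRR1 responses given above turned from negative to positive for 5 of 6 members and became -0.00 for Cre12.g544450.t1.1, and the median of crr1 against crr1:CRR1 over members became -0.04. A CC-124 limit of 0.2 RPKM gave 20 members and one of 1 RPKM gave 74, in place of 41; a mean of at least 1 or 5 RPKM gave 103 or 21. Leaving TS4 at 6 h out of the mean, an alternative chosen after seeing the data, gave 38. No member was in a run of 3 or more (0). With a pseudocount of 5, calls over all models were 640 at 0.5 h, 826 at 6 h and 544 between 6 h and 0.5 h, and 3, 31 and 44 for crr1 against crr1:CRR1, crr1dCys against crr1:CRR1 and crr1dCys against crr1; members called were 4 at 0.5 h and 2 between the dark stages. Over all models, with all columns, those strain comparisons called 9, 57 and 95, which became 2, 12 and 30 without a filter, 45, 109 and 163 without TS4 at 6 h, and 116, 196 and 245 with TS1 alone; the log2 of the mean RPKM gave 25 for the first. Members called were then 5 for crr1dCys against crr1:CRR1 without TS4 and with TS1 alone, and 2 (TS1 alone) or 1 (log2 of the mean) for crr1 against crr1:CRR1. With CC-124 in the fit, 3 members were called at 0.5 h. Leaving out each strain in turn gave 4 to 10 members at 0.5 h and 2 to 5 between the dark stages, the lowest both without crr1. Leaving out each stage in turn gave 1 to 60, 7 to 152 and 13 to 194 models in the strain comparisons, and 0 to 3, 3 to 7 and 3 to 7 members, the highest each without 6 h. The cause was not tested. No paired analysis was possible because each strain and stage has 1 sample; no replicate number exists beyond strain and stage, which are terms of the fit already. Depth limits the 7 members counted at 1 to 23 reads, apart from Cre10.g443550.t1.1, whose read number is unknown.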
